A study of Mus musculus with 14 samples.

Results

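Nuclear receptors are transcription factors whose DNA-binding domain carries zinc fingers and whose ligand-binding domain, in many members, answers a hormone, a bile acid, an oxysterol, a fatty acid, a retinoid or a foreign compound. Most of the liver's metabolic receptors act as heterodimers with a retinoid X receptor, exchanging corepressors for coactivators when ligand binds, and in the liver they govern bile acid, lipid and drug metabolism. The set described here is 36 genes of the superfamily, found by their symbols in the table of expression values. They are 36 of the 20377 symbols of the table. Each symbol was represented by its transcript row with the highest mean, which was a choice among several rows for 14 members. Of the 36, 32 passed the filter on low values (at least 1 RPKM in at least 4 of 14 libraries), as did 12638 symbols in all. Nr2f1, Nr4a3, Rorb and Esrrg did not pass.

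Messenger RNA was sequenced in 3 cell populations sorted from livers of C57BL/6 mice that were chimeric, so that mature hepatocytes carried the red fluorescent protein mTomato, and that had received 0.1% DDC, a porphyrin-inducing hepatotoxin that provokes ductular reactions, for 5 to 8 weeks. Hepatocyte-derived ductal cells (5 libraries, numbered 219, 220, 225, 248 and 611) carried the ductal surface antigen MIC1-1C3 and mTomato, had low side scatter and lacked CD11b, CD26, CD31 and CD45. Cholangiocyte-derived ductal cells (5 libraries, 118, 219, 220, 225 and 611) are labelled as host cells of the ducts, and the third population was hepatocytes (4 libraries, 118, 225, 248 and 611). All 3 came from DDC-fed chimeric animals, so no population from uninjured liver enters the comparisons, and origin rests on the red marker as sorted. The labels do not say whether different numbers are different mice, so p-values measure the spread between these libraries, which may in part be technical. Per-library values below follow the order of the numbers just given.

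Depth, estimated from the smallest steps between low values, was about 19700000 to 29200000 reads per library. The summed RPKM of 7 hepatocyte markers was 4302.7 to 9127.8 in hepatocyte-derived ductal cells, 2797.3 to 4338.9 in cholangiocyte-derived ductal cells and 44240.2 to 61652.9 in hepatocytes, and that of 7 biliary markers was 16931 to 19725.1, 20340.4 to 21963.3 and 606 to 1419.2, in the same order. All 7 biliary markers were called higher in both ductal populations than in hepatocytes. The keratin Krt19 was 23.44 to 81.78 RPKM in hepatocyte-derived and 588.30 to 742.68 RPKM in cholangiocyte-derived ductal cells, against 0.09 to 10.36 RPKM in hepatocytes, and Krt7 and Epcam likewise were called lower in the hepatocyte-derived of the ductal populations. There were 3 libraries that stood apart by transcripts of other cells. The sum of 7 stellate and fibroblast markers was 324 and 384 in cholangiocyte-derived libraries 118 and 220, against 29.6 to 66 in the other 3, and 132 in hepatocyte library 118, against 4.68 to 6.75 in the other 3 hepatocyte libraries. In hepatocyte-derived ductal cells this sum was 9.47 to 25.8, below every cholangiocyte-derived library, so leaving libraries out does not remove that difference. The sum of 9 macrophage markers was 803 in hepatocyte library 118, against 18.6 to 34.1 in the rest of that group. Results that rest on these libraries are given with and without them.

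All tested genes together were shifted against hepatocytes: their median difference on the log2(RPKM + 1) scale was 0.67 for hepatocyte-derived ductal cells minus hepatocytes and 0.76 for cholangiocyte-derived ductal cells minus hepatocytes, but -0.03 between the ductal populations. Scaling the libraries by median ratios brought these medians to 0.01, 0.05 and 0. Differences from hepatocytes are therefore read relative to that shift, and scaled values are given beside the receptors whose call against hepatocytes they end or turn. Differences are means of log2(RPKM + 1), a scale that understates changes of low genes, given with their SE from limma and with p-values adjusted over all 12638 genes. A gene was called at an adjusted p under 0.05.

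Summed over the 36 members, expression in unscaled RPKM was 693 ± 69 RPKM in hepatocyte-derived ductal cells, 688 ± 61.8 RPKM in cholangiocyte-derived ductal cells and 698 ± 16.4 RPKM in hepatocytes (SD, n = 5, 5 and 4). After median-ratio scaling the sums were 594 ± 61.6, 576 ± 57.6 and 1044.6 ± 26.6 in the same order, so how the ductal sums compare with the hepatocyte sum depends on the scaling. Against hepatocytes, 17 members were called higher and 9 lower in the hepatocyte-derived cells, where 66.2% of all tested genes were called higher and 14.8% lower. The members' shares of the 32 tested were 53.1% and 28.1%. In cholangiocyte-derived ductal cells 17 members were called higher and 12 lower than in hepatocytes, 53.1% and 37.5%, where 67.1% and 17.4% of all tested genes were called. Between the ductal populations 10 members were called higher and 6 lower in the hepatocyte-derived cells, 31.2% and 18.8%, beside 15.1% and 21% of all tested genes. The median member difference was 0.40, 0.61 and 0.18 in the 3 comparisons, which share libraries.

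Scaling mattered for the members higher than hepatocytes. Under median-ratio scaling, the counts against hepatocytes were 9 higher and 15 lower for hepatocyte-derived ductal cells, and 10 higher and 14 lower for cholangiocyte-derived ductal cells. Of all tested genes, that scaling called 37.2% higher and 36.8% lower in hepatocyte-derived, and 40.3% higher and 38.4% lower in cholangiocyte-derived ductal cells. The calls between the ductal populations stayed at 10 and 6. With all 3 scalings, hepatocyte-derived ductal cells kept 6 higher and 9 lower members relative to hepatocytes, 9 were higher and 12 lower in cholangiocyte-derived ductal cells than in hepatocytes, and the same 10 and 6 differed between the ductal populations. Without the 3 libraries that stood apart, the counts were 17 and 10, 15 and 12, and 9 and 5, with 31 members left to test. The counts include Vdr, which passed the filter only through the cholangiocyte-derived libraries, and Rxrg, which would not have passed without the hepatocyte libraries, so their calls are no support for the counts.

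**Figure D1:**
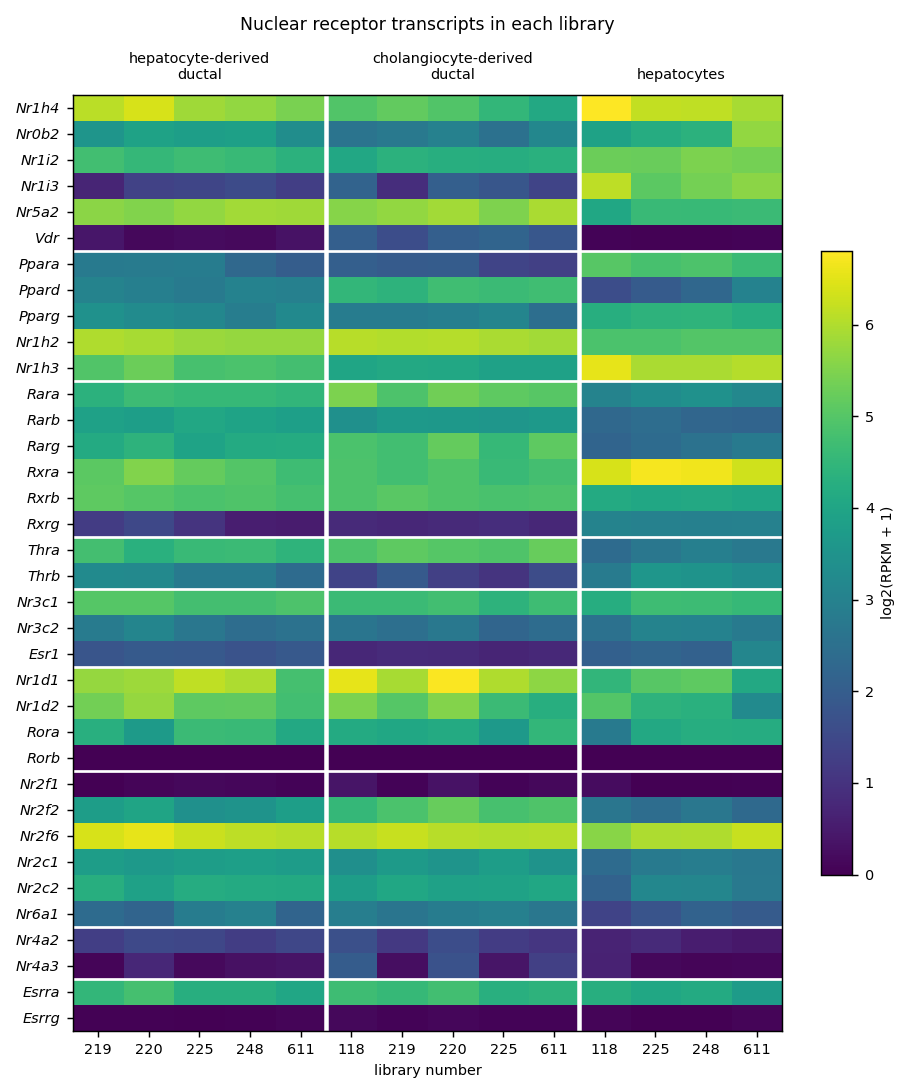
Level of each of the 36 receptors (rows, grouped by role) in each of the 14 libraries (columns, by population and library number) as log2(RPKM + 1), from dark (0) to yellow (high). Nr1i3, Ppara, Rxra and Rxrg stand out in the 4 hepatocyte libraries, Vdr and Ppard in the 5 cholangiocyte-derived ductal libraries, and Rorb and Esrrg are near 0 in all 14.

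The promoter windows of 3 receptors, picked after their values were seen, are shown because these genes mark the contrasts between the populations: Nr1i3 and Rxrg were lower in both ductal populations than in hepatocytes, and Vdr reached 1 RPKM in cholangiocyte-derived ductal cells alone. Each window is the 250 bases before a RefSeq gene start in build GRCm38.p6, a later build than the mm9 of the expression table, on the gene's own strand. Capitals mark AAGGTCA, the extended hexamer that monomeric receptors bind, or CACGTG, the E-box bound by CLOCK and BMAL1. The Nr1i3 window is chr1:171213720-171213969 on the plus strand, the Rxrg window chr1:167618015-167618264 on the plus strand (1 of 2 Rxrg windows), and the Vdr window chr15:97908297-97908546 on the minus strand.
Nr1i3: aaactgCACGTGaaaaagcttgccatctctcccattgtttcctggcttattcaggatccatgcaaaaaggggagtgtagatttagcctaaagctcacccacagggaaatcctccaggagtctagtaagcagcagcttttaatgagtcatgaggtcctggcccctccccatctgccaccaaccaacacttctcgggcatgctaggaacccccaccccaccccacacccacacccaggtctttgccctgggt
Rxrg: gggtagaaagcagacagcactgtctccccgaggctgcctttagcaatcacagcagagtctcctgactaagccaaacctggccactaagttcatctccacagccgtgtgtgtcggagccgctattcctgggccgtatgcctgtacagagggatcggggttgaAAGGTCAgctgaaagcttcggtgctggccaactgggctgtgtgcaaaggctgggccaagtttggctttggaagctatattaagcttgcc
Vdr: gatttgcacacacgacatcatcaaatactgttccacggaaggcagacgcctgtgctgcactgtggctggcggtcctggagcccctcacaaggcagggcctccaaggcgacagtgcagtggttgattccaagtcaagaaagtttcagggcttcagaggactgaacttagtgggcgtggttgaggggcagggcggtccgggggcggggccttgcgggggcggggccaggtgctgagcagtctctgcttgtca
The Nr1i3 window held 1 CACGTG, the Rxrg window 1 AAGGTCA, and the Vdr window none of the motifs searched. Searched on both strands, the plain hexamer AGGTCA (which AAGGTCA contains) occurred in 10 of the 53 windows of the 34 members that had one, AAGGTCA in 3 and CACGTG in 4. Of all 32851 windows of the same length, 14% held AGGTCA, 4.08% AAGGTCA and 6.02% CACGTG. A match is a description of the letters in the window, not a binding site.

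Among the bile acid and xenobiotic receptors, Nr1i3 set hepatocytes apart from both ductal populations. It encodes CAR, a sensor of foreign compounds that induces drug-metabolizing enzymes. Nr1i3 measured 0.63, 1.53, 1.70, 1.96 and 1.38 RPKM in hepatocyte-derived ductal cells and 3.51, 0.84, 3.17, 2.56 and 1.63 RPKM in cholangiocyte-derived ductal cells, against 68.28, 32.97, 40.42 and 48.20 RPKM in hepatocytes. Every ductal library was far below every hepatocyte library, and the ductal populations overlapped. The differences from hepatocytes were -4.29 ± 0.27 (adjusted p = 2.82e-09) for hepatocyte-derived and -3.88 ± 0.27 (adjusted p = 4.66e-09) for cholangiocyte-derived ductal cells. Nr1i3 was the single tested member whose unscaled mean was lowest in the hepatocyte-derived cells, and its difference between the ductal populations was -0.41 with a 95% interval of -0.95 to 0.14. In such sorted bulk samples, fewer cells of a type and less RNA per cell cannot be told apart.

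Nr1h4 encodes FXR, the bile acid receptor that restrains bile acid synthesis, and it behaved differently from Nr1i3. Its values were 67.55, 83.17, 56.30, 50.78 and 42.24 RPKM in hepatocyte-derived ductal cells and 30.23, 34.95, 29.82, 21.77 and 16.21 RPKM in cholangiocyte-derived ductal cells, against 110.68, 71.49, 70.59 and 59.34 RPKM in hepatocytes. The hepatocyte-derived libraries overlapped the hepatocyte libraries and lay above all cholangiocyte-derived ones. Relative to cholangiocyte-derived ductal cells the difference was 1.15 ± 0.23 (adjusted p = 0.000974), and relative to hepatocytes it was -0.37 ± 0.24 (adjusted p = 0.166). Within the 3 shared library numbers Nr1h4 was lower each time in the hepatocyte-derived ductal library than in the hepatocyte library, at 56.30 against 71.49 RPKM in 225, 50.78 against 70.59 RPKM in 248 and 42.24 against 59.34 RPKM in 611. After median-ratio scaling Nr1h4 was called lower than in hepatocytes, by -1.17. Cholangiocyte-derived ductal cells were lower than hepatocytes by -1.53 (adjusted p = 3.17e-05). Hepatocyte transcripts move with this contrast, since the median hepatocyte marker sum was 6232.1 RPKM in hepatocyte-derived and 3865.4 RPKM in cholangiocyte-derived ductal cells, against 46705.8 RPKM in hepatocytes. Nr1i3, which hepatocytes express at a mean of 47.5 ± 15.2 RPKM, averaged 1.44 ± 0.501 RPKM in the same hepatocyte-derived libraries (SD, n = 4 and 5). The part of hepatocyte transcripts in the Nr1h4 result was not tested.

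Nr0b2 (SHP, a corepressor without a DNA-binding domain that FXR induces) and Nr1i2 (PXR, the other main xenobiotic sensor) followed the same order of means as Nr1h4. Nr0b2 averaged 12.1 ± 2.14 RPKM in hepatocyte-derived ductal cells and 6.14 ± 1.30 RPKM in cholangiocyte-derived ductal cells, against 25.7 ± 17.2 RPKM in hepatocytes, where library 611 alone reached 51.20 RPKM. Nr1i2 averaged 23.1 ± 2.29 and 18.1 ± 1.47 RPKM in hepatocyte-derived and cholangiocyte-derived ductal cells, against 39.5 ± 3.06 RPKM in hepatocytes. Both were lower in each ductal population than in hepatocytes, under all 3 scalings, and higher in hepatocyte-derived than in cholangiocyte-derived ductal cells, by 0.88 (adjusted p = 0.0179) and 0.33 (adjusted p = 0.00561). With the library number as a block in the 12 numbered libraries the ductal differences were 0.75 (adjusted p = 0.116) and 0.29 (adjusted p = 0.0592) and were not called. Those 12 are the libraries whose number is in a sample title, which leaves out the 2 ductal libraries numbered 220. In the same 12 libraries without the block Nr0b2 was also not called (0.87, adjusted p = 0.0585), whereas Nr1i2 kept its call.

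Nr5a2 (LRH-1, an orphan receptor of bile acid synthesis and of pancreatic and hepatic endoderm) ran the other way. It averaged 51.3 ± 5.14 RPKM in hepatocyte-derived ductal cells and 52.0 ± 7 RPKM in cholangiocyte-derived ductal cells, against 21.5 ± 3.97 RPKM in hepatocytes. No ductal library overlapped a hepatocyte library, and both differences, 1.23 (adjusted p = 7.01e-07) and 1.25 (adjusted p = 4.95e-07), were called under all 3 scalings. Between the ductal populations the difference was -0.01, with an interval of -0.28 to 0.25.

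Vdr, the vitamin D receptor, which also binds the secondary bile acid lithocholic acid, was near 0 outside the cholangiocyte-derived ductal cells. It measured 0.33, 0.11, 0.14, 0.13 and 0.26 RPKM in hepatocyte-derived ductal cells and 3.15, 2.06, 3.15, 3.54 and 2.62 RPKM in cholangiocyte-derived ductal cells, against 0.05, 0.03, 0.03 and 0.04 RPKM in hepatocytes. No value of one population overlapped another. As a description, since Vdr passed the filter only where it is high, the difference between hepatocyte-derived and cholangiocyte-derived ductal cells was -1.70 ± 0.11, and that of cholangiocyte-derived ductal cells from hepatocytes was 1.90. Hepatocyte-derived ductal cells did not differ from hepatocytes by the test (0.20, adjusted p = 0.12), although with a pseudocount of 0.1 they were called higher by 1.04 (adjusted p = 0.00184). These values rest on an estimated 11 to 28 reads per hepatocyte-derived library and 3 to 5 per hepatocyte library, against 207 to 343 per cholangiocyte-derived library. Without the 3 libraries that stood apart Vdr was not tested.

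Known targets of these receptors were listed as context. All 8 listed CAR and PXR targets and all 8 tested FXR and SHP targets (of 9 listed) were lower in each ductal population than in hepatocytes, under all 3 scalings. Of all tested genes, 14.8% were called lower in hepatocyte-derived and 17.4% in cholangiocyte-derived ductal cells, and 36.8% and 38.4% after median-ratio scaling. The FXR and SHP list includes genes of bile acid synthesis, which FXR restrains, so its shared direction is no reading of FXR activity. Cyp2b10, the cytochrome P450 that CAR classically induces, averaged 1.25 ± 0.787 RPKM in hepatocyte-derived and 1.73 ± 1.52 RPKM in cholangiocyte-derived ductal cells, against 75.3 ± 23.8 RPKM in hepatocytes; reads of close Cyp paralogs may have been split by the counting. Between the ductal populations, where 15.1% of all tested genes were called higher, 2 CAR and PXR targets and 3 FXR and SHP targets were called, all higher in hepatocyte-derived cells. They were Slco1a4 and Abcc2, an organic anion carrier and the canalicular conjugate exporter, and Abcb4 (the phospholipid floppase), Ostb (a subunit of the basolateral bile acid exporter) and Baat (bile acid conjugation). Abcb4 measured 33.58, 35.71, 39.42, 33.20 and 31.04 RPKM in hepatocyte-derived ductal cells and 6.40, 11.05, 6.19, 9.92 and 3.05 RPKM in cholangiocyte-derived ductal cells, against 126.04, 211.19, 202.95 and 190.63 RPKM in hepatocytes. The 3 populations did not overlap.

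**Figure D2:**
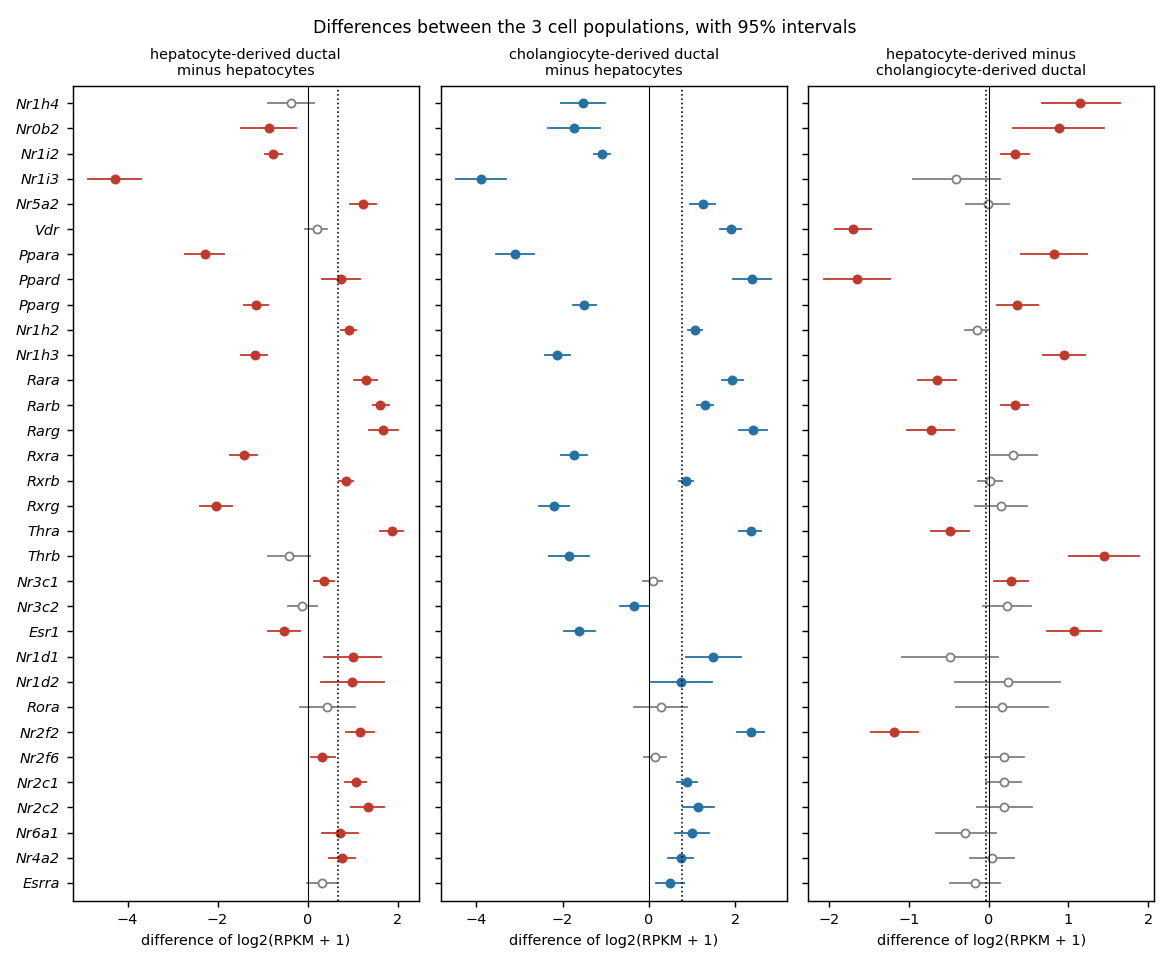
Difference of mean log2(RPKM + 1) for the 32 tested receptors in the 3 comparisons, with 95% intervals from limma; filled points were called at an adjusted p under 0.05, open points were not, and the dotted line is the median of all tested genes (0.67, 0.76 and -0.03). Nr1i3 lies farthest left in the first 2 panels, and Vdr, Ppard and Nr2f2 lie farthest left in the third.

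The peroxisome proliferator-activated receptors differed in their balance between the populations. Ppara drives fatty acid oxidation and ketogenesis in fasted liver, Ppard is a broadly expressed fatty acid receptor, and Pparg is best known from adipocytes. Ppara measured 5.83, 6.14, 6.22, 3.90 and 3.04 RPKM in hepatocyte-derived ductal cells and 3.16, 2.89, 2.96, 1.62 and 1.44 RPKM in cholangiocyte-derived ductal cells, against 31.65, 27.23, 28.75 and 23.97 RPKM in hepatocytes. Every ductal library was below the hepatocyte libraries, and the ductal populations overlapped at their edges. Ppard measured 7.21, 6.62, 5.98, 7.04 and 6.76 RPKM in hepatocyte-derived ductal cells and 21.71, 20.14, 25.30, 23.75 and 25.27 RPKM in cholangiocyte-derived ductal cells, against 2.04, 2.86, 3.83 and 7.02 RPKM in hepatocytes. The cholangiocyte-derived libraries stood clear of all others, whereas hepatocyte library 611 overlapped the hepatocyte-derived ductal libraries.

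Ppara was lower than in hepatocytes by -2.29 ± 0.20 (adjusted p = 9.75e-08) in hepatocyte-derived and by -3.11 ± 0.20 (adjusted p = 2.53e-09) in cholangiocyte-derived ductal cells, and higher in the hepatocyte-derived of the ductal populations by 0.82 (adjusted p = 0.00367). Ppard was lower in hepatocyte-derived than in cholangiocyte-derived ductal cells by -1.65 ± 0.19 (adjusted p = 8.66e-06) and higher in cholangiocyte-derived ductal cells than in hepatocytes by 2.39 (adjusted p = 4.18e-08). Its difference between hepatocyte-derived ductal cells and hepatocytes, 0.74 (adjusted p = 0.00369), was near the shift of all genes and became 0.08 after median-ratio scaling and -0.20 after quantile normalization, neither called. Pparg averaged 8.22 ± 1.31 RPKM in hepatocyte-derived and 6.22 ± 1.10 RPKM in cholangiocyte-derived ductal cells, against 19.2 ± 1.39 RPKM in hepatocytes, and was lower in each ductal population. Its ductal difference of 0.36 (adjusted p = 0.0323) was 0.38 (adjusted p = 0.0906) with the library number as a block. In the 12 numbered libraries it was 0.36 (adjusted p = 0.088) without the block. It was also not called when any 1 of hepatocyte-derived libraries 219, 220 and 611 or cholangiocyte-derived libraries 118, 219 and 611 was left out (0.26 to 0.36, adjusted p = 0.0522 to 0.0888).

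As a share of the summed RPKM of the 3 PPARs, Ppard made up 34 ± 4.74% in hepatocyte-derived ductal cells and 72.9 ± 4.77% in cholangiocyte-derived ductal cells, against 7.81 ± 4.60% in hepatocytes. Ppara made up 24.9 ± 5.57%, 7.61 ± 2.68% and 54.6 ± 4.80% in the same order (SD, n = 5, 5 and 4). A share within a library is not touched by the scaling of whole libraries. The hepatocyte-derived ductal cells lay between the other populations for both shares, with no overlap. Pparg did not follow this order, at 41.1 ± 3.64%, 19.5 ± 3.19% and 37.6 ± 2.19%. Its hepatocyte-derived shares (36.7 to 46%) overlapped those of hepatocytes (35.2 to 40%).

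Of 12 listed PPAR alpha targets, 9 were lower in hepatocyte-derived ductal cells and 11 in cholangiocyte-derived ductal cells than in hepatocytes, and 6 were higher in the hepatocyte-derived than in the cholangiocyte-derived cells. None was called in the opposite direction, apart from 1 in hepatocyte-derived ductal cells after quantile normalization. Of all tested genes, 14.8% and 17.4% were called lower than in hepatocytes, and 15.1% higher in hepatocyte-derived than in cholangiocyte-derived cells. Cpt1a, the carnitine transferase that admits long-chain fatty acids to mitochondria, averaged 121 ± 15.6 RPKM in hepatocyte-derived and 76.2 ± 4.87 RPKM in cholangiocyte-derived ductal cells, against 117 ± 18.4 RPKM in hepatocytes. Its ductal difference was 0.65 (adjusted p = 0.000295).

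The liver X receptors, which sense oxysterols and control cholesterol efflux and lipogenesis, shifted from Nr1h3 (LXR alpha) to Nr1h2 (LXR beta). Nr1h3 measured 29.99, 37.71, 27.40, 28.18 and 26.04 RPKM in hepatocyte-derived ductal cells and 14.91, 16.27, 15.91, 13.81 and 13.82 RPKM in cholangiocyte-derived ductal cells, against 93.33, 60.12, 59.93 and 65.61 RPKM in hepatocytes. The 3 populations formed separate ranges. The differences were -1.18 ± 0.13 (adjusted p = 1.17e-06) and -2.13 ± 0.13 (adjusted p = 1.54e-09) from hepatocytes, and 0.94 ± 0.13 (adjusted p = 3.22e-05) between hepatocyte-derived and cholangiocyte-derived ductal cells. Hepatocyte library 118, which held the highest Nr1h3 value, also held the macrophage marker sum of 803 RPKM; without it the hepatocyte mean was 61.9 ± 3.23 RPKM.

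Nr1h2 averaged 56.1 ± 4.62 RPKM in hepatocyte-derived and 62.5 ± 3.76 RPKM in cholangiocyte-derived ductal cells, against 29.3 ± 1.29 RPKM in hepatocytes. It was called higher in both, but after median-ratio scaling the hepatocyte-derived difference was 0.13 and not called, and the cholangiocyte-derived difference was 0.25 and called. Nr1h3 made up 34.6 ± 2.43% of the LXR sum in hepatocyte-derived ductal cells and 19.3 ± 0.718% in cholangiocyte-derived ductal cells, against 69.9 ± 4.70% in hepatocytes. Of 9 listed LXR targets, 4 were lower in hepatocyte-derived ductal cells and none was higher than in hepatocytes, with Abcg5, Abcg8 (the sterol exporter pair) and Scd1 (the stearoyl-CoA desaturase) having the smallest adjusted p. In cholangiocyte-derived ductal cells 4 were lower and 2 (Abcg1, an efflux transporter, and Srebf1, the lipogenic regulator SREBP-1) higher. Relative to cholangiocyte-derived cells, 1 (Abcg8, 0.9) was called higher and 2 (Srebf1, -0.73, and Abcg1, -1.3) lower in hepatocyte-derived cells. Beside these stood 15.1% and 21% of all tested genes. After median-ratio scaling 7 were lower than in hepatocytes in the hepatocyte-derived and 5 in the cholangiocyte-derived cells, and none was higher in either. Of all tested genes, 66.2% and 67.1% were called higher and 14.8% and 17.4% lower, in the same order. With that scaling the shares were 37.2% and 40.3% higher and 36.8% and 38.4% lower.

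**Figure D3:**
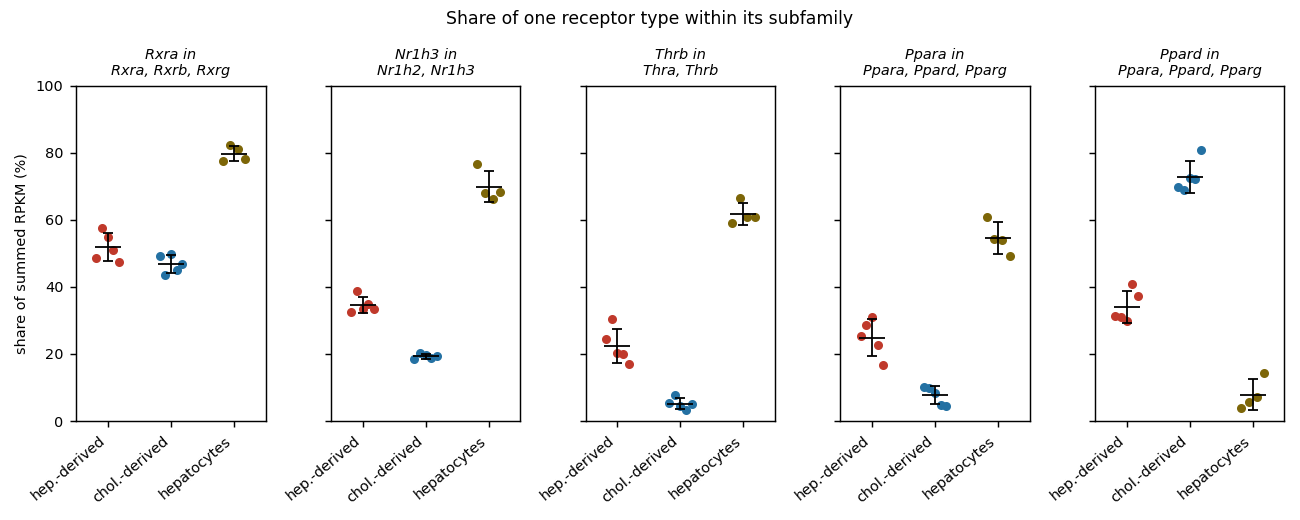
Share of one receptor type in the summed RPKM of its subfamily, in percent, for each library (points) with mean and SD (bars), in hepatocyte-derived ductal cells (hep.-derived), cholangiocyte-derived ductal cells (chol.-derived) and hepatocytes. Rxra, Nr1h3, Thrb and Ppara hold their largest shares in hepatocytes (79.7%, 69.9%, 61.9% and 54.6%), Ppard its largest in cholangiocyte-derived ductal cells (72.9%). The shares of Pparg and Rarb, for which hepatocyte-derived ductal cells overlapped hepatocytes, are not drawn.

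The retinoid receptors split by subfamily. The retinoic acid receptors Rara, Rarb and Rarg, which bind all-trans retinoic acid, were higher in both ductal populations than in hepatocytes under all 3 scalings. Rarb measured 13.86, 12.97, 15.86, 14.48 and 13.25 RPKM in hepatocyte-derived ductal cells and 9.59, 11.52, 11.42, 10.85 and 11.71 RPKM in cholangiocyte-derived ductal cells, against 3.93, 4.39, 3.71 and 3.56 RPKM in hepatocytes. Rarb was called higher in the hepatocyte-derived cells than in both other populations, by 1.62 ± 0.08 (adjusted p = 3.71e-10) over hepatocytes and 0.33 ± 0.08 (adjusted p = 0.00393) over cholangiocyte-derived ductal cells, and its 3 ranges did not overlap.

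Rarg measured 16.84, 20.10, 14.50, 16.82 and 17.11 RPKM in hepatocyte-derived ductal cells and 28.25, 25.56, 35.40, 22.50 and 33.70 RPKM in cholangiocyte-derived ductal cells, against 3.56, 4.21, 4.88 and 6.03 RPKM in hepatocytes. Rara averaged 22.1 ± 1.79 RPKM in hepatocyte-derived and 35.5 ± 5.75 RPKM in cholangiocyte-derived ductal cells, against 8.50 ± 1.15 RPKM in hepatocytes. For both genes the hepatocyte-derived libraries lay between the others with no overlap. The ductal differences were -0.72 (adjusted p = 0.000804) for Rarg and -0.65 (adjusted p = 0.000294) for Rara. Rarb made up 26.5 ± 2.71% of the summed RPKM of Rara, Rarb and Rarg in hepatocyte-derived and 14.8 ± 2.24% in cholangiocyte-derived ductal cells. Its share in hepatocytes was 23 ± 3.46%, and the hepatocyte-derived shares (22.6 to 29.9%) overlapped the hepatocyte shares (20.1 to 26.8%).

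Among the retinoid X receptors, the shared heterodimer partners, Rxra and Rxrg were lower in both ductal populations, whereas Rxrb was called higher. Rxra measured 32.83, 44.94, 35.47, 30.79 and 24.79 RPKM in hepatocyte-derived ductal cells and 28.67, 25.66, 29.71, 23.28 and 26.07 RPKM in cholangiocyte-derived ductal cells, against 82.80, 104.13, 99.09 and 78.83 RPKM in hepatocytes. The ductal populations overlapped each other and stayed below the hepatocytes, with differences of -1.42 (adjusted p = 3.29e-07) and -1.73 (adjusted p = 2.89e-08). Rxrg, best known from muscle and brain, measured 1.31, 1.77, 1.02, 0.49 and 0.44 RPKM in hepatocyte-derived ductal cells and 0.77, 0.68, 0.75, 0.84 and 0.70 RPKM in cholangiocyte-derived ductal cells, against 7.27, 6.94, 6.74 and 7.01 RPKM in hepatocytes. Its hepatocyte values were nearly constant. As a description, since Rxrg would not have passed the filter without the hepatocyte libraries, the differences were -2.04 and -2.19.

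Rxrb averaged 29.9 ± 2.59 RPKM in hepatocyte-derived and 29.5 ± 1.84 RPKM in cholangiocyte-derived ductal cells, against 15.9 ± 0.853 RPKM in hepatocytes. It was called higher in both ductal populations, by 0.86 and 0.85, but median-ratio scaling left differences of 0.10 and 0.05 that were not called. Rxra made up 51.9 ± 4.21% of the RXR sum in hepatocyte-derived ductal cells and 46.9 ± 2.69% in cholangiocyte-derived ductal cells, against 79.7 ± 2.31% in hepatocytes. Of 13 listed genes of retinoid handling and response, 8 were tested, and 5 were higher and 3 lower in each ductal population than in hepatocytes. Relative to cholangiocyte-derived cells, 2 were called higher and 3 lower in hepatocyte-derived cells, beside 15.1% and 21% of all tested genes. After median-ratio scaling the counts against hepatocytes were 3 and 3 in the hepatocyte-derived and 2 and 4 in the cholangiocyte-derived cells. Of all tested genes, 66.2% and 67.1% were called higher and 14.8% and 17.4% lower, in the same order. With that scaling the shares were 37.2% and 40.3% higher and 36.8% and 38.4% lower. Aldh1a2, a retinaldehyde dehydrogenase that makes retinoic acid, measured 1.46, 1.56, 0.36, 0.90 and 5.12 RPKM in hepatocyte-derived ductal cells and 29.46, 37.33, 33.47, 31.11 and 34.53 RPKM in cholangiocyte-derived ductal cells, against 1.00, 0.02, 0.02 and 0.13 RPKM in hepatocytes. Every cholangiocyte-derived library was far above every other library, and the ductal difference was -3.76 (adjusted p = 3.54e-07). Cyp26a1, the retinoic acid hydroxylase, was lower in both ductal populations, at 1.58 ± 1.10 RPKM in hepatocyte-derived and 0.868 ± 0.407 RPKM in cholangiocyte-derived ductal cells, against 13.4 ± 3.40 RPKM in hepatocytes.

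The thyroid hormone receptors also traded weight. Thrb is the main receptor for thyroid hormone in hepatocytes, and Thra predominates in most other tissues. Thrb measured 8.56, 8.26, 5.95, 5.98 and 4.18 RPKM in hepatocyte-derived ductal cells and 1.59, 2.83, 1.45, 1.02 and 1.98 RPKM in cholangiocyte-derived ductal cells, against 6.12, 10.90, 10.26 and 8.87 RPKM in hepatocytes. The hepatocyte-derived libraries overlapped the hepatocytes and not the cholangiocyte-derived libraries, with a ductal difference of 1.45 ± 0.20 (adjusted p = 5.20e-05). Against hepatocytes the difference of hepatocyte-derived ductal cells was -0.41 (adjusted p = 0.0909), and it was called after median-ratio scaling (-1.13) and without hepatocyte library 118 (-0.57, adjusted p = 0.0236). Within the shared numbers Thrb was lower each time in the hepatocyte-derived ductal library than in the hepatocyte library, at 5.95 against 10.90 RPKM in 225, 5.98 against 10.26 RPKM in 248 and 4.18 against 8.87 RPKM in 611.

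Thra averaged 22.6 ± 2.98 RPKM in hepatocyte-derived and 31.9 ± 3.19 RPKM in cholangiocyte-derived ductal cells, against 5.50 ± 0.991 RPKM in hepatocytes, and was higher in both ductal populations under all 3 scalings. Between the ductal populations it was lower in the hepatocyte-derived cells by -0.48 (adjusted p = 0.00355). Thrb made up 22.4 ± 5.16% of the pair in hepatocyte-derived ductal cells and 5.18 ± 1.59% in cholangiocyte-derived ductal cells, against 61.9 ± 3.25% in hepatocytes. Of 5 listed genes of the thyroid hormone response, 1 was higher and 2 lower in the hepatocyte-derived cells, and 2 were higher and 3 lower in cholangiocyte-derived ductal cells, than in hepatocytes. Relative to cholangiocyte-derived cells, 1 was called higher and 2 lower in hepatocyte-derived cells, beside 15.1% and 21% of all tested genes. After median-ratio scaling the counts against hepatocytes were 1 and 4, and 1 and 3. Of all tested genes, 66.2% and 67.1% were called higher and 14.8% and 17.4% lower, in the same order. With that scaling the shares were 37.2% and 40.3% higher and 36.8% and 38.4% lower. Dio1, the deiodinase that activates thyroid hormone, averaged 8.14 ± 1.31 and 6.27 ± 1.58 RPKM in hepatocyte-derived and cholangiocyte-derived ductal cells, against 60.2 ± 19.0 RPKM in hepatocytes. Hr, the hairless corepressor, ran the opposite way, at 5.21 ± 0.565 and 12.1 ± 0.799 RPKM in hepatocyte-derived and cholangiocyte-derived ductal cells, against 1.44 ± 0.761 RPKM in hepatocytes.

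Position in the genome pairs some of these genes. In mm9, Thra (chr11:98603187-98626425, plus strand), Nr1d1 (chr11:98629249-98636556, minus strand) and Rara (chr11:98801025-98836256, plus strand) lie near each other on chromosome 11. Their paralogs Rarb (chr14:17263354-17407724, minus strand), Thrb (chr14:18493474-18870602, plus strand) and Nr1d2 (chr14:19036570-19071620, minus strand) lie near each other on chromosome 14. Between hepatocyte-derived and cholangiocyte-derived ductal cells the chromosome 11 genes had differences of -0.48, -0.48 and -0.65, of which Thra and Rara were called. The chromosome 14 genes had differences of 0.33, 1.45 and 0.24, of which Rarb and Thrb were called. The signs thus differed between the paralog clusters, in a set of 6 genes grouped after their values were seen. An alternative Thra transcript runs on the opposite strand into the end of Nr1d1, and with an unstranded kit the reads from that overlap cannot be told apart.

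**Figure D4:**
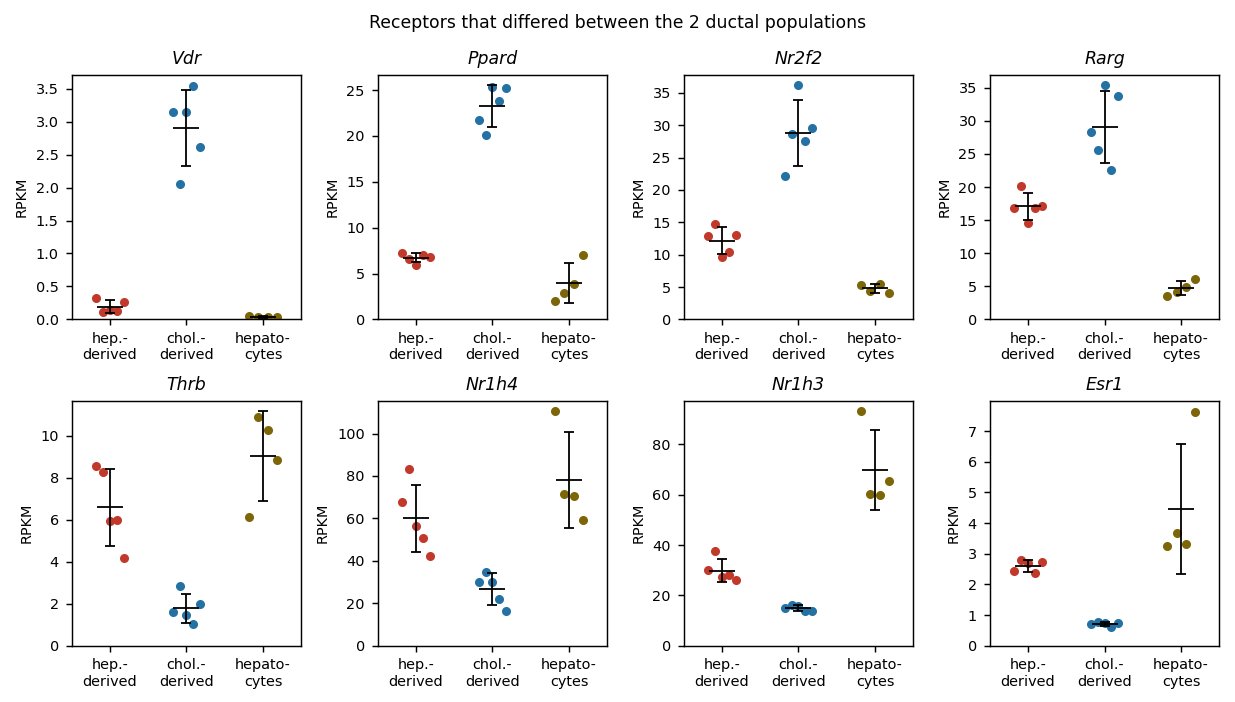
RPKM of 8 receptors called between the ductal populations, for each library (points) with mean and SD (bars), in hepatocyte-derived ductal cells, cholangiocyte-derived ductal cells and hepatocytes; each panel's axis starts at 0. Vdr, Ppard, Nr2f2 and Rarg are highest in cholangiocyte-derived ductal cells, whereas for Thrb, Nr1h4, Nr1h3 and Esr1 the hepatocyte-derived ductal cells lie above them.

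Of the steroid receptors, Esr1, the oestrogen receptor alpha, was lower in hepatocyte-derived than in hepatocyte libraries and lower again in cholangiocyte-derived ones. It measured 2.45, 2.80, 2.71, 2.36 and 2.73 RPKM in hepatocyte-derived ductal cells and 0.70, 0.78, 0.74, 0.62 and 0.73 RPKM in cholangiocyte-derived ductal cells, against 3.24, 3.69, 3.31 and 7.64 RPKM in hepatocytes. The 3 ranges were separate and, apart from hepatocyte library 611, narrow. The differences from hepatocytes were -0.53 ± 0.17 (adjusted p = 0.00934) and -1.61 ± 0.17 (adjusted p = 4.44e-07), and the ductal difference was 1.07 ± 0.16 (adjusted p = 8.75e-05).

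Nr3c1, the glucocorticoid receptor, and Nr3c2, the mineralocorticoid receptor, differed little in unscaled values. Nr3c1 averaged 28.9 ± 2.5 RPKM in hepatocyte-derived and 23.7 ± 2.13 RPKM in cholangiocyte-derived ductal cells, against 22.3 ± 3.21 RPKM in hepatocytes. Its difference from hepatocytes in hepatocyte-derived ductal cells, 0.37 (adjusted p = 0.00469), was below the shift of all genes and became -0.41, called lower, after median-ratio scaling. In cholangiocyte-derived ductal cells Nr3c1 was not called (0.09), but that scaling called it lower, by -0.72. Its ductal difference of 0.28 (adjusted p = 0.039) was 0.23 (adjusted p = 0.197) with the library number as a block. In the 12 numbered libraries it was 0.28 (adjusted p = 0.0923) without the block. It was also not called without any 1 of hepatocyte-derived libraries 219, 220 and 611 and cholangiocyte-derived libraries 118, 219, 225 and 611 (0.22 to 0.29, adjusted p = 0.0505 to 0.102). Nr3c2 averaged 5.68 ± 1.20 and 4.67 ± 0.767 RPKM in hepatocyte-derived and cholangiocyte-derived ductal cells, against 6.23 ± 1.13 RPKM in hepatocytes, with a called difference in cholangiocyte-derived ductal cells alone (-0.35, adjusted p = 0.0403) that was not called without any 1 of cholangiocyte-derived libraries 219, 225 and 611 and hepatocyte libraries 225, 248 and 611 (-0.36 to -0.28, adjusted p = 0.0568 to 0.119). After median-ratio scaling Nr3c2 was called lower in both ductal populations, by -0.82 in hepatocyte-derived and -1.07 in cholangiocyte-derived ductal cells. Quantile normalization also called it lower in both, by -1 and -1.42 in the same order.

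Of 7 listed glucocorticoid response genes, 4 were higher and 2 lower in the hepatocyte-derived cells, and 2 were higher and 4 lower in cholangiocyte-derived ductal cells, than in hepatocytes. Relative to cholangiocyte-derived cells, 2 were called higher and 2 lower in hepatocyte-derived cells, beside 15.1% and 21% of all tested genes. After median-ratio scaling the counts against hepatocytes were 1 and 3 in the hepatocyte-derived and 2 and 4 in the cholangiocyte-derived cells. Of all tested genes, 66.2% and 67.1% were called higher and 14.8% and 17.4% lower, in the same order. With that scaling the shares were 37.2% and 40.3% higher and 36.8% and 38.4% lower. Tat and Pck1, enzymes of amino acid breakdown and gluconeogenesis, were lower in both ductal populations. Zbtb16 (PLZF, a zinc finger repressor) averaged 12.2 ± 2.93 RPKM in hepatocyte-derived and 2.21 ± 0.866 RPKM in cholangiocyte-derived ductal cells, with a ductal difference of 2.05 (adjusted p = 1.17e-05), against 6.76 ± 2.62 RPKM in hepatocytes.

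The REV-ERB receptors Nr1d1 and Nr1d2, heme-binding repressors of the circadian clock, varied more between libraries of a population than most members. Nr1d1 measured 51.92, 54.88, 69.57, 61.30 and 27.03 RPKM in hepatocyte-derived ductal cells and 91.97, 59.18, 107.0, 62.51 and 48.77 RPKM in cholangiocyte-derived ductal cells, against 21.38, 31.73, 33.92 and 16.15 RPKM in hepatocytes. Nr1d2 measured 40.30, 51.78, 33.97, 34.47 and 25.87 RPKM in hepatocyte-derived ductal cells and 42.96, 31.39, 45.18, 24.05 and 18.17 RPKM in cholangiocyte-derived ductal cells, against 30.48, 20.03, 18.93 and 8.50 RPKM in hepatocytes. In every population library 611 was the lowest for both genes. The other numbers did not keep 1 order for Nr1d1. Library 118 was above 225 in cholangiocyte-derived ductal cells (91.97 against 62.51 RPKM) and below it in hepatocytes (21.38 against 31.73 RPKM).

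Clock output genes varied in the same libraries. Dbp, an output factor of the clock, measured 52.14, 126.85, 22.17, 20.43 and 3.6 RPKM in hepatocyte-derived ductal cells and 103.22, 42.28, 110.01, 21.58 and 10.99 RPKM in cholangiocyte-derived ductal cells, against 109.44, 7.90, 9.04 and 0.84 RPKM in hepatocytes. Arntl (BMAL1), which REV-ERBs repress, measured 6.62, 1.02, 9.83, 10.92 and 19.95 RPKM in hepatocyte-derived ductal cells and 3.01, 10.87, 4.38, 14.47 and 23.79 RPKM in cholangiocyte-derived ductal cells, against 0.54, 11.67, 10.52 and 19.51 RPKM in hepatocytes. Libraries 118 and 220 were the highest for Dbp and the lowest for Arntl in each population that has them, and library 611 was the reverse. The labels give no time of collection, so the source of the difference between numbers was not tested. Dbp and Arntl are named here because this pattern was seen.

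Within a library number, both REV-ERB genes were higher in the ductal populations than in hepatocytes in each number that allowed the comparison. Nr1d1 was 69.57 against 31.73 RPKM in 225, 61.30 against 33.92 RPKM in 248 and 27.03 against 16.15 RPKM in 611 for hepatocyte-derived ductal cells against hepatocytes, and 91.97 against 21.38 RPKM in 118, 62.51 against 31.73 RPKM in 225 and 48.77 against 16.15 RPKM in 611 for cholangiocyte-derived ductal cells against hepatocytes. Over all libraries the differences of hepatocyte-derived ductal cells from hepatocytes were 1.00 (adjusted p = 0.00609) for Nr1d1 and 0.99 (adjusted p = 0.0121) for Nr1d2. Those of cholangiocyte-derived ductal cells from hepatocytes were 1.48 (adjusted p = 0.000295) and 0.75 (adjusted p = 0.0454). After median-ratio scaling none of the 4 was called (0.22 and 0.22, then 0.66 and -0.05). The Nr1d2 call in cholangiocyte-derived ductal cells was also lost without any 1 of hepatocyte-derived libraries 219, 225 and 248, cholangiocyte-derived libraries 118, 219 and 220 and hepatocyte libraries 225, 248 and 611 (0.42 to 0.80, adjusted p = 0.0539 to 0.189).

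Rora, an activator that competes with REV-ERBs for their sites, was not called in any comparison, at 18.9 ± 4.90 RPKM in hepatocyte-derived and 16.5 ± 3.61 RPKM in cholangiocyte-derived ductal cells, against 14.4 ± 5.71 RPKM in hepatocytes. Rorb, a receptor of retina and brain, was 0.01 RPKM in 1 library and 0 in the others. Of 12 listed clock and output genes, relative to hepatocytes 4 were higher and none lower in the hepatocyte-derived cells, 4 were higher and 1 lower in cholangiocyte-derived ductal cells than in hepatocytes, and 1 (Hlf, 1.56, adjusted p = 0.00154) was higher in hepatocyte-derived than in cholangiocyte-derived ductal cells. After median-ratio scaling 2 were higher and 3 lower in hepatocyte-derived, and 3 higher and 2 lower in cholangiocyte-derived ductal cells, than in hepatocytes. Of all tested genes, 66.2% and 67.1% were called higher and 14.8% and 17.4% lower, in the same order. With that scaling the shares were 37.2% and 40.3% higher and 36.8% and 38.4% lower. Between the ductal populations 15.1% were called higher.

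**Figure D5:**
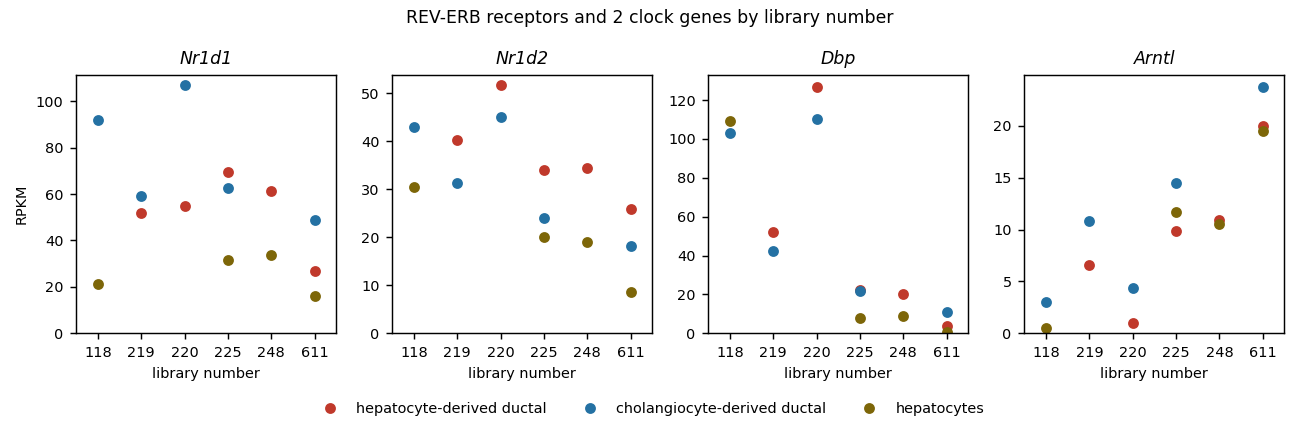
RPKM of Nr1d1, Nr1d2, Dbp and Arntl by library number in hepatocyte-derived ductal cells, cholangiocyte-derived ductal cells and hepatocytes (1 point per library; not every number exists in every population). Dbp is at least 103.22 RPKM in libraries 118 and 220 of all populations and at most 10.99 RPKM in library 611, and Arntl runs the other way.

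Nr2f2 (COUP-TFII, an orphan receptor of venous endothelium and mesenchyme that ductal epithelium also expresses) was the most changed of its group. It measured 12.93, 14.76, 9.70, 10.34 and 12.97 RPKM in hepatocyte-derived ductal cells and 22.10, 28.63, 36.23, 27.53 and 29.61 RPKM in cholangiocyte-derived ductal cells, against 5.32, 4.41, 5.47 and 4.05 RPKM in hepatocytes. The 3 populations were separate, with a ductal difference of -1.18 ± 0.13 (adjusted p = 7.31e-06). Stellate cells and endothelium are known to express Nr2f2. Without the 3 libraries that stood apart the ductal difference was -1.19 (adjusted p = 3.33e-05). The stellate and fibroblast marker sum of the remaining cholangiocyte-derived libraries, 29.6 to 66 RPKM, still exceeded the 9.47 to 25.8 RPKM of the hepatocyte-derived libraries. The part of such cells in the difference was not tested. Cholangiocyte-derived ductal cells exceeded hepatocytes by 2.35 (adjusted p = 1.12e-09), and hepatocyte-derived ones by 1.17 (adjusted p = 2.70e-06); quantile normalization left 0.26, not called, for the hepatocyte-derived cells.

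The related Nr2f1 (COUP-TFI) stayed at or below 0.30 RPKM. Its highest values were 0.30 and 0.25 RPKM in cholangiocyte-derived libraries 118 and 220 and 0.17 RPKM in hepatocyte library 118, the libraries with the stellate marker sums of 324, 384 and 132 RPKM; the part of those cells was not tested. Nr2f6 (EAR2) was among the most abundant members in every population, at 77.5 ± 11.2 RPKM in hepatocyte-derived and 67.2 ± 3.98 RPKM in cholangiocyte-derived ductal cells, against 61.6 ± 10.9 RPKM in hepatocytes. Its call in hepatocyte-derived ductal cells (0.33, adjusted p = 0.0217) was below the shift of all genes, turned to -0.46 after median-ratio scaling, and was lost without hepatocyte-derived library 220 (0.26, adjusted p = 0.058) or hepatocyte library 118 (0.22, adjusted p = 0.0725).

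The testicular receptors Nr2c1 and Nr2c2 and the germ cell nuclear factor Nr6a1 were called higher in both ductal populations than in hepatocytes. Nr2c2 averaged 16.6 ± 1.74 RPKM in hepatocyte-derived and 14.4 ± 1.24 RPKM in cholangiocyte-derived ductal cells, against 6.21 ± 2.11 RPKM in hepatocytes, and in hepatocyte-derived cells was called under all 3 scalings (1.34, adjusted p = 4.48e-06). Nr2c1 averaged 12.6 ± 0.682, 11 ± 1.41 and 5.53 ± 0.941 RPKM, and Nr6a1 4.91 ± 1.56, 6.05 ± 0.659 and 2.57 ± 0.780 RPKM, in the same order. After median-ratio scaling neither Nr6a1 call held (0.10 and 0.35), nor did those of Nr2c1 (0.14) and Nr2c2 (0.39) in cholangiocyte-derived ductal cells, and quantile normalization also ended the Nr2c1 call in hepatocyte-derived ductal cells (0.20). None of the 3 was called between the ductal populations.

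Of the NR4A immediate early receptors, Nr4a2 averaged 1.62 ± 0.217 RPKM in hepatocyte-derived and 1.58 ± 0.499 RPKM in cholangiocyte-derived ductal cells, against 0.540 ± 0.166 RPKM in hepatocytes, and was called higher in both (0.77 and 0.73). Quantile normalization gave -0.25, not called, and -0.59, called lower. Nr4a3, a relative that responds to the same kinds of stimuli, reached 2.98, 2.29 and 1.45 RPKM in cholangiocyte-derived libraries 118, 220 and 611, against 0.19 and 0.31 RPKM in the other 2, and was at most 0.69 RPKM elsewhere. Libraries 118 and 220 are those with the other-cell transcripts. Esrra, the oestrogen-related receptor that drives mitochondrial genes, averaged 20 ± 4.49 RPKM in hepatocyte-derived and 22.5 ± 3.13 RPKM in cholangiocyte-derived ductal cells, against 15.7 ± 2.49 RPKM in hepatocytes. Its call in cholangiocyte-derived ductal cells (0.49, adjusted p = 0.00851) was below the shift of all genes and became -0.31, not called, after median-ratio scaling. In hepatocyte-derived ductal cells it was not called (0.32, adjusted p = 0.0698), but was called without hepatocyte-derived library 611 (0.41, adjusted p = 0.0225) or hepatocyte library 118 (0.39, adjusted p = 0.0384), and after median-ratio scaling it was called lower (-0.44). Its relative Esrrg was at most 0.11 RPKM.

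The proteins through which these receptors act were listed too. Of 10 coactivator genes, 9 were higher and none lower in hepatocyte-derived ductal cells, and 9 were higher and 1 lower in cholangiocyte-derived ductal cells, than in hepatocytes. Of 8 corepressor genes all 8 were higher in each, beside 66.2% and 67.1% of all tested genes. After median-ratio scaling 6 coactivators and 5 corepressors were higher in hepatocyte-derived ductal cells, and 6 and 4 in cholangiocyte-derived ductal cells, beside 37.2% and 40.3% of all tested genes, and 1 coactivator was lower in each. Carm1, an arginine methyltransferase recruited by coactivators, averaged 36.7 ± 1.13 and 35.9 ± 1.31 RPKM in hepatocyte-derived and cholangiocyte-derived ductal cells, against 17.0 ± 0.499 RPKM in hepatocytes, and Hdac3, the deacetylase of the NCoR complex, 82.2 ± 6.52 and 80.4 ± 8.65 RPKM, against 29.8 ± 4.81 RPKM. Between the ductal populations 1 coactivator (Ppargc1b, 0.61, adjusted p = 0.00812) and none of the corepressors was called by limma.

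Among receptors outside the set, Hnf4a, the central hepatocyte receptor, averaged 130 ± 30.1 RPKM in hepatocyte-derived and 58.3 ± 10.8 RPKM in cholangiocyte-derived ductal cells, against 236 ± 15.1 RPKM in hepatocytes. Its ductal difference was 1.13 (adjusted p = 8.77e-05). Its relative Hnf4g had the reverse order, at 0.958 ± 0.353 and 5.29 ± 1.47 RPKM in the hepatocyte-derived and cholangiocyte-derived cells, against 0.0250 ± 0.0252 RPKM in hepatocytes, with a ductal difference of -1.67 (adjusted p = 7.07e-07).

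Across the family, the hepatocyte-derived mean lay between the other populations for 22 of the 32 tested members (68.8%), beside 7540 of 12638 tested genes (59.7%). It was the highest for 9 members (28.1%, beside 31.1% of all tested genes) and the lowest for 1 (3.12%, beside 9.28%). These positions are those of unscaled means, were not counted on scaled values, and depend on the scaling. After median-ratio scaling Esrra differed from hepatocytes by -0.44 in hepatocyte-derived and -0.31 in cholangiocyte-derived cells, so the hepatocyte-derived cells were lowest. For Nr2f6 (-0.46 and -0.69) and Nr3c1 (-0.41 and -0.72) they then lay between the other populations. The 6 members lower in hepatocyte-derived than in cholangiocyte-derived ductal cells were Vdr, Ppard, Nr2f2, Rarg, Rara and Thra. The 10 higher members were Thrb, Nr1h4, Esr1, Nr1h3, Nr0b2, Ppara, Pparg, Nr1i2, Rarb and Nr3c1. With the library number as a block in the 12 numbered libraries 6 of these 10 were called, without Nr0b2, Nr1i2, Nr3c1 and Pparg, and all 6 lower members were. Vdr, among the 6 lower, passed the filter only through the cholangiocyte-derived libraries, so its call is no support for that count. Nr0b2, Nr3c1 and Pparg were not called in those 12 libraries without the block either.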

How the data were processed

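Polyadenylated RNA (75 to 200 ng) of 14 sorted populations was sequenced from TruSeq libraries that do not mark the strand, per the labels' protocols. The authors deposited 1 table of RPKM values (reads scaled to transcript length and library size) for 26005 transcript rows. CASAVA and Bowtie 0.12.7 with the mouse build mm9 are named in the submitters' processing notes, which give no counting rule, so the treatment of reads shared by paralogs is not given in the sources used here. Of the 14 columns, 12 were matched to a sample by title, and 2, numbered 220 where the titles have 120, to their group only. The series text speaks of 3 hepatocyte samples, and the table holds 4.

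From these RPKM values, the row with the highest mean was kept for each of 20377 symbols (3507 had several). Those reaching 1 RPKM in 4 or more libraries entered limma 3.58.1 (R 4.3.3) as log2(RPKM + 1), in 1 model of 3 groups over all 14 libraries, with an intensity trend in the variance and Benjamini-Hochberg adjustment, at a threshold of 0.05. Figures and tables used Python 3.11.15, numpy 2.4.6, pandas 2.3.3 and matplotlib 3.10.9. The fit was tested on simulated data with known changes. Depth was estimated from the smallest steps of transcripts of 300 to 1200 nt and is approximate, so estimated reads give only the order of precision.

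Members and gene lists were chosen with earlier results of these data known. Every member is named; from each list at most 3 called genes per comparison, those with the smallest adjusted p, and Hnf4a. Alternatives were the pseudocount, the filter, 2 other scalings, the sum of rows, a fit of 2 groups, library weights, leaving libraries out, and the library number as a block. Libraries of the same number deviated together in each of 3 shared numbers between the ductal populations (correlations 0.212 to 0.797) and between cholangiocyte-derived ductal cells and hepatocytes (0.133 to 0.512); the pairing comes from the data and the shared number, not from a statement in the labels. Sequences are RefSeq windows from GRCm38.p6, and no coordinate was carried between builds. Some genes that the naming rule selects are not reported here.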

Additional observations from a re-analysis of the deposited data

Results flagged for a closer look

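In 5 of 96 groups of libraries (32 receptors in 3 populations) the highest or lowest library lay apart from the rest by Dixon's criterion, where chance gives about 1 in 20 groups. All 5 were in the 4 hepatocyte libraries. In hepatocyte library 118, Nr1h3 was the highest at 93.33 RPKM, against 59.93 to 65.61 RPKM in the other 3. In the same library Nr5a2 was the lowest at 15.52 RPKM, against 23.15 to 23.74 RPKM, and Rora was the lowest at 5.85 RPKM, against 16.27 to 17.86 RPKM. This library also held the high macrophage, endothelial and stellate marker sums (803, 195 and 132 RPKM) and the highest Dbp of its group (109.44 RPKM), and their part in these values was not tested. In hepatocyte library 611, Nr0b2 was the highest at 51.2 RPKM, against 14.22 to 19.7 RPKM, and Esr1 was the highest at 7.64 RPKM, against 3.24 to 3.69 RPKM. Without library 118 the hepatocyte means were 61.9 ± 3.23 RPKM for Nr1h3, 23.4 ± 0.295 RPKM for Nr5a2 and 17.2 ± 0.824 RPKM for Rora (SD, n = 3).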

How the results depend on the processing

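Of 2640 recomputed values, 2524 kept their side of the threshold, 66 lost the call, 28 gained one, 16 changed sign where a call was involved and 6 counts moved by more than 1.5 times. Another 27 sign changes were of values called under neither setting and are counted among the 2524. Median-ratio scaling left 9 members higher and 15 lower for the hepatocyte-derived cells against hepatocytes, and 10 higher in cholangiocyte-derived ductal cells, where 37.2%, 36.8% and 40.3% of all tested genes were called. Quantile normalization left 9 and 11 higher, beside 36.4% and 38.7%. Among members called in at least 1 of the settings compared, median-ratio scaling turned the sign for Esrra (-0.44), Nr2f6 (-0.46) and Nr3c1 (-0.41) in hepatocyte-derived ductal cells, and for Esrra (-0.31), Nr1d2 (-0.05), Nr2f6 (-0.69) and Nr3c1 (-0.72) in cholangiocyte-derived ductal cells. Quantile normalization turned it for Nr3c1 (-0.11), Nr4a2 (-0.25), Nr6a1 (-0.27) and Ppard (-0.20) in the hepatocyte-derived, and for Esrra (-0.13), Nr2c1 (-0.09), Nr3c1 (-0.45), Nr4a2 (-0.59) and Nr6a1 (-0.15) in the cholangiocyte-derived cells. Against hepatocytes, members called in neither setting also turned: Rora with both scalings (-0.31 and -0.21 in hepatocyte-derived, -0.51 and -0.47 in cholangiocyte-derived ductal cells), and Esrra (-0.28) and Vdr (-0.33) in hepatocyte-derived ductal cells with quantile normalization. Both scalings by construction remove the shift of all genes; beyond that the cause was not tested.

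Leaving out 1 library at a time gave 16 to 18 members higher and 9 to 10 lower for the hepatocyte-derived cells against hepatocytes, 16 to 17 and 11 to 12 in cholangiocyte-derived ductal cells than in hepatocytes, and 8 to 10 and 6 between the ductal populations. With the replicate block in the 12 numbered libraries, 6 members were higher and 6 lower between the ductal populations (7 and 6 in those libraries without the block), and no call changed between cholangiocyte-derived ductal cells and hepatocytes. The lower members include Vdr, whose call is no support for these counts. Hepatocyte-derived ductal cells and hepatocytes share 3 numbers, with correlations of 0.129, 0.0208 and 0.193, so they are not taken as pairs; 2 of the 3 correlated best with their own number, and the block gave 15 higher and 11 lower, with Nr1h4 (-0.50, adjusted p = 0.00151) and Thrb (-0.70, adjusted p = 0.00851) called lower and Nr2f6 and Nr3c1 no longer called, by limma. Values under 1 RPKM rest on few estimated reads, and 4 of 36 members were not tested.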

Other observations

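Angptl4, a secreted inhibitor of lipoprotein lipase and a known target of PPARs, averaged 56.6 ± 16.5 RPKM in hepatocyte-derived and 14 ± 7.8 RPKM in cholangiocyte-derived ductal cells, against 48.3 ± 13.6 RPKM in hepatocytes (SD, n = 5, 5 and 4), with a ductal difference of 2.03 (limma, adjusted p = 0.000101).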
